A study of Caenorhabditis elegans with 7 samples.

Results

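The flp genes of Caenorhabditis elegans encode FMRFamide-like peptide precursors, and their mRNA was measured in starved first-stage (L1) larvae whose parents had eaten either freely or sparsely. Genes with a symbol of the form flp-number in the authors' comparison table were taken as members, and 1 further gene, flp-23, was added through the name table. This gave 31 genes out of 44968 counted features. Of these, 30 passed the filter on low counts and were tested together with all 14867 genes that passed it. Names follow the submitters' identifiers, for example flp-28 (W07E11.4) and flp-18 (Y48D7A.2).

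All worms were the wild-type strain N2, kept at 20 °C on OP50 bacteria beforehand. Parents of the AL (ad libitum) group grew in liquid culture with HB101 bacteria at 25 mg per mL and parents of the DR (dietary restriction) group at 3.1, for which the labels print ml per mL and the authors' notes sheet mg per mL. After 96 hr the adults were bleached, and embryos of both groups hatched without food and were collected 24 hr later as pools of whole larvae. There were 3 AL libraries (A, B and C) and 4 DR libraries (A, B, C and D), called biological replicates by the submitters without saying whether each came from a separate culture, so p-values measure the spread between these samples.

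Counts assigned to features summed to between 16626117 and 22952310 in each library. In DR D 22.5% of the counts were ribosomal RNA, against 7.54% to 12.2% in the other 6 libraries. Pan-neuronal genes (synaptic vesicle and neuronal cytoskeleton genes), which mark the tissue that makes most of these peptides, were all measured: 25 of 25 listed genes were tested. In whole larvae, fewer cells of a type and less RNA per cell cannot be told apart.

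FMRFamide-like peptides are cut from larger precursors in the secretory pathway, end in an amidated arginine-phenylalanine pair, and leave neurons in dense-core vesicles. They act mostly through G-protein-coupled receptors of the npr, dmsr and frpr families on other neurons, muscle, gland and gut. In worms they are known for the control of sleep, locomotion, egg laying, pharyngeal pumping, foraging and fat use.

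The mean summed level of the family was higher in DR progeny, but no single member passed the test. Levels are given as CPM, the usual depth-scaled count, here with TMM factors for library composition. Summed over the 31 genes, the level was 3500, 3067 and 3687 CPM in AL A, B and C and 3991, 3642, 4695 and 4115 CPM in DR A, B, C and D. The groups overlapped, since DR B lay below AL C, and the lowest and highest libraries were AL B and DR C. The mean was 3418 ± 318 CPM (SD, n = 3) in AL progeny and 4111 ± 438 CPM (SD, n = 4) in DR progeny, a ratio of 1.20. This is a description of the list, without a test.

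Of the 30 tested members 25 had a higher and 5 a lower fitted level in DR progeny, where 51.6% of all genes tested were higher. Their median log2 fold change (DR over AL) was 0.29, against 0.0078 over all genes tested. By edgeR's quasi-likelihood test with Benjamini-Hochberg adjustment over all genes, 0 of 30 members had an adjusted p under 0.05, where 0.0135% of all genes did. DESeq2, limma-voom and the edgeR exact test also called 0 members. DESeq2 called 55 genes, 0.537% of those it gave an adjusted p, and its smallest adjusted p among members was 0.0579 (flp-28). Of all 14867 genes, limma-voom called 0 and the exact test 24. At an unadjusted p under 0.05 there were 15 members higher in DR progeny, where 5.39% of all genes were, and 1 lower, where 5.35% of all genes were. In 9 members all DR values exceeded all AL values (5.97% of all genes), and in 1 all DR values were lower (5.88% of all genes).

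The count of members higher at an unadjusted p under 0.05 and the median leaned on AL B and DR C. Members with a higher fitted level numbered 27 of 30 without AL B (51.8% of all genes) and 24 without DR C (51% of all genes). Without AL B, 2 members were higher at an unadjusted p under 0.05, where 3.05% of all genes were, and the median log2 fold change was 0.20. Without DR C it was 9 members, against 5.95% of all genes, and a median of 0.21. Without both of these libraries, a choice made after seeing the data, 2 members were higher at that level, against 3.65% of all genes. The median was then 0.11, and 24 of 30 had a fold change above 0, against 50% of all genes. Within the 2 prefixes carried by the names of the deposited files, the median was 0.23 (AL A against DR A, B and C) and 0.32 (AL B and C against DR D). There 29 and 22 members were higher, against 53.6% and 49.8% of all genes. Without DR D, the library rich in ribosomal RNA, 11 members were higher at an unadjusted p under 0.05, against 3.66% of all genes (median 0.27). With the ribosomal share as a covariate 10 were, against 2.67% of all genes (median 0.29).

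**Figure D1:**
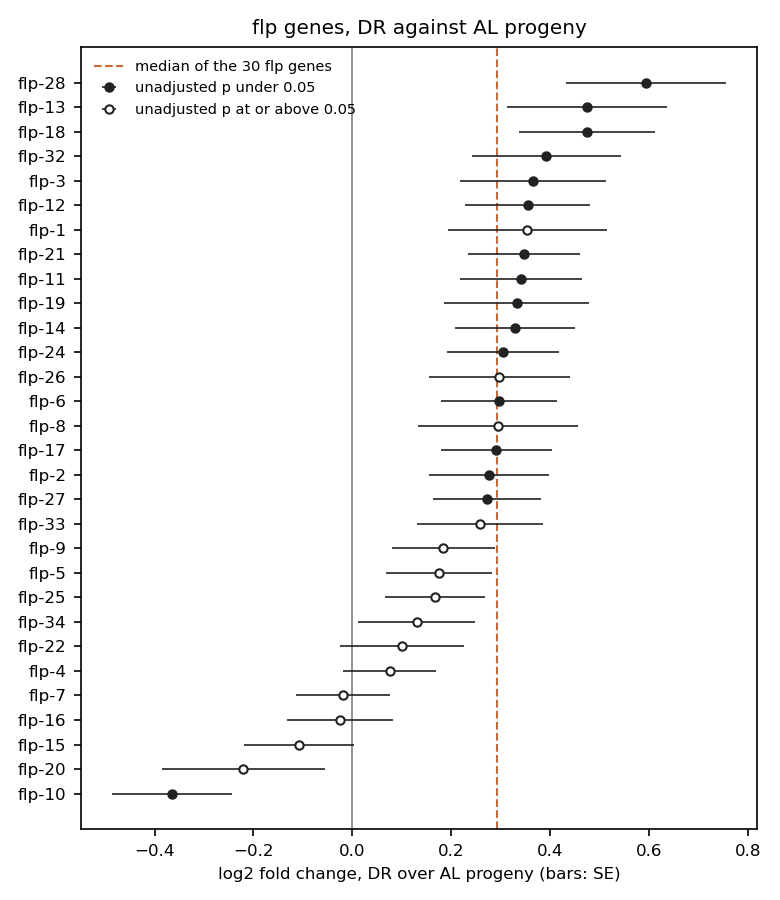
Fitted log2 fold change of DR over AL progeny for the 30 tested flp genes, with bars of 1 standard error; filled points have an unadjusted p under 0.05 and the dashed line is the median of 0.29. The values run from −0.36 for flp-10 to 0.59 for flp-28, and none passed after adjustment over all genes.

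The member with the largest fold change was flp-28. Its level was 88.0, 60.4 and 86.0 CPM in AL A, B and C and 109, 95.2, 137 and 132 CPM in DR A, B, C and D. Every DR library stood above every AL library. The log2 fold change was 0.59 ± 0.16 (SE), with an adjusted p of 0.372 in edgeR's quasi-likelihood test. In the authors' deposited table, made with an exact test, flp-28 had a log2 fold change of 0.60 and the smallest adjusted p of the family, 0.0629. The authors' deposited table called 0.283% of genes at an adjusted p under 0.05 and none of the 30 listed members, while 16 members were higher in DR progeny at an unadjusted p under 0.05, against 4.44% of all genes. The fold change of flp-28 was 0.37 and 0.86 within the file-name prefixes and 0.35 without both AL B and DR C.

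On chromosome X, flp-28 lies in a run with flp-3 and flp-2 inside the span of W07E11.1, a gene on the opposite strand with which none of them shares exon sequence in the Ensembl annotation. The IL1 head neurons are among the sites of flp-3, which read 207, 143 and 206 CPM in AL A, B and C and 214, 215, 284 and 242 CPM in DR A, B, C and D. Its groups did not overlap, and DR A cleared AL A by a narrow margin (log2 fold change 0.37 ± 0.15, SE, adjusted p = 0.424, edgeR). That fold change was 0.21 without AL B and 0.11 without both AL B and DR C. The levels of flp-2, a peptide gene of arousal and of the gut's oxidative stress response, ran from 47.6 to 59.9 CPM in AL and from 57.4 to 76.1 CPM in DR progeny, and overlapped. W07E11.1 itself ranged from 85.9 to 117 CPM in AL and from 82.5 to 102 CPM in DR libraries.

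3 members are tied to sleep and quiescence: flp-11 acts in the RIS neuron during developmentally timed sleep, and flp-13 and flp-24 act in the ALA neuron in sleep after cellular stress. Levels of flp-13 were 73.4, 55.0 and 73.0 CPM in AL A, B and C and 88.0, 71.8, 115.2 and 98.6 CPM in DR A, B, C and D. DR B lay just below AL A and AL C, so the groups overlapped (log2 fold change 0.47 ± 0.16, SE, adjusted p = 0.376, edgeR). Those of flp-11 were 199, 153 and 196 CPM in AL and 221, 203, 265 and 236 CPM in DR libraries. Those of flp-24 were 203, 185 and 212 CPM in AL and 237, 216, 290 and 246 CPM in DR libraries. Neither flp-11 nor flp-24 overlapped between the groups, with DR B the DR library nearest to AL for both. Their log2 fold changes were 0.34 ± 0.12 and 0.30 ± 0.11 (SE), with adjusted p of 0.386 and 0.399 in edgeR's test. Without both AL B and DR C the 3 fold changes were 0.23 for flp-13, 0.15 for flp-11 and 0.16 for flp-24.

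Among genes of foraging, feeding and fat, flp-18 and flp-21 encode the ligands of the receptor NPR-1, which sets solitary or social feeding. Levels of flp-18 were 214, 162 and 208 CPM in AL A, B and C and 272, 226, 325 and 261 CPM in DR A, B, C and D. Those of flp-21 were 91.3, 77.5 and 92.0 CPM in AL and 113, 92.8, 124 and 113 CPM in DR libraries. Both had every DR library above every AL library, for flp-21 with DR B and AL C almost level. Log2 fold changes were 0.47 ± 0.14 for flp-18 and 0.35 ± 0.11 for flp-21 (SE), with adjusted p of 0.374 and 0.376 in edgeR's test, and 0.25 and 0.21 without both AL B and DR C.

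The other genes of this role had means close to each other or lower in DR progeny, apart from a small excess for flp-34. A peptide gene of the ASI neurons that promotes fat loss, flp-7, had 54.3 ± 4.39 CPM (SD, n = 3) in AL and 53.6 ± 3.82 CPM (SD, n = 4) in DR progeny. For flp-15, whose peptides activate NPR-3, the levels were 125, 155 and 141 CPM in AL and 130, 128, 149 and 114 CPM in DR libraries. AL B was its highest library and DR D its lowest, and the groups overlapped (log2 fold change −0.11 ± 0.11, SE, adjusted p = 0.744, edgeR). Its sign depended on the libraries, with −0.03 without AL B, −0.18 without AL A and 0.12 within the first file-name prefix. The neuropeptide Y-like gene flp-34 had the lowest level per kilobase of exon of the tested members, and its AL and DR means were 15.9 ± 2.22 CPM (SD, n = 3) and 17.4 ± 1.25 CPM (SD, n = 4).

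Of the genes of locomotion and egg laying, flp-10 and flp-20 had lower mean levels in DR progeny. Levels of flp-10 were 30.3, 32.4 and 33.4 CPM in AL A, B and C and 23.2, 25.2, 30.2 and 20.7 CPM in DR A, B, C and D. Every DR library lay below every AL library, DR C by only a small margin (log2 fold change −0.36 ± 0.12, SE, adjusted p = 0.376, edgeR). Both flp-10 and flp-17 encode ligands of EGL-6, a receptor that inhibits egg laying in adults. Levels of flp-17, a gene of the carbon dioxide-sensing BAG neurons, were higher in DR progeny, with 170, 144 and 173 CPM in AL and 200, 174, 196 and 226 CPM in DR libraries. There the groups did not overlap, with DR B and AL C almost equal (log2 fold change 0.29 ± 0.11, SE, adjusted p = 0.409, edgeR). The low-level receptor gene egl-6 had 5.49 ± 0.867 CPM (SD, n = 3) in AL and 3.82 ± 1.04 CPM (SD, n = 4) in DR progeny.

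In flp-1, flp-9 and flp-20 the groups overlapped, as they did in flp-2, while flp-18, which also belongs to this role, is described above. A gene of the AVK interneuron that shapes locomotion, flp-1, stood at 208, 145 and 214 CPM in AL and 205, 213, 289 and 259 CPM in DR libraries. DR A and DR B lay below AL C. The log2 fold change was 0.35 ± 0.16 (SE, adjusted p = 0.465, edgeR), 0.20 without AL B and 0.09 without both AL B and DR C. For flp-9, whose peptide quiets the pharynx of dissected worms, levels were 319, 292 and 330 CPM in AL and 344, 324, 403 and 356 CPM in DR libraries, with DR B inside the AL range (log2 fold change 0.18 ± 0.10, SE, adjusted p = 0.538, edgeR, and 0.12 without DR C). The touch neuron gene flp-20 ranged from 35.8 CPM (AL A) to 58.5 CPM (AL B) within the AL group alone, a span that held all DR libraries except DR D at 33.7 CPM.

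Of the members outside these roles, 4 more had their levels followed library by library. A gene of male turning behaviour, flp-12, had 153, 129 and 167 CPM in AL and 177, 170, 230 and 188 CPM in DR libraries. For flp-27 they were 68.3, 57.9 and 68.9 CPM in AL and 74.7, 69.7, 90.4 and 79.5 CPM in DR libraries. In both genes every DR library was above every AL library, with log2 fold changes of 0.35 ± 0.13 and 0.27 ± 0.11 (SE) and adjusted p of 0.381 and 0.424 by edgeR's test. A stimulator of the pharynx, flp-14, had 232, 201 and 260 CPM in AL and 292, 244, 307 and 319 CPM in DR libraries. DR B lay below AL C there (log2 fold change 0.33 ± 0.12, SE, adjusted p = 0.396, edgeR). Another pharyngeal stimulator, flp-5, had 142, 137 and 147 CPM in AL and 168, 143, 184 and 145 CPM in DR libraries, and DR B and DR D overlapped with AL (log2 fold change 0.18 ± 0.11, SE, adjusted p = 0.569, edgeR). Without DR C its fold change was 0.10, and without both AL B and DR C 0.07. Without both, it was 0.15 for flp-12, 0.11 for flp-27 and 0.20 for flp-14.

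Groups overlapped in the remaining members. Those with an unadjusted p under 0.05 were flp-6, a gene of the ASE taste neurons, at 111 ± 14.0 CPM (SD, n = 3) in AL and 137 ± 14.9 CPM (SD, n = 4) in DR progeny, flp-19 at 111 ± 19.7 and 140 ± 21.99 CPM, and flp-32 at 19.3 ± 3.53 and 25.4 ± 4.16 CPM, besides flp-2. Mean levels in AL and DR progeny were 89.6 and 110 CPM for flp-26, 67.2 and 80.4 CPM for flp-33, 37.9 and 42.5 CPM for flp-25, 71.1 and 74.9 CPM for flp-4, and 126 and 123 CPM for flp-16. For flp-8 the means were 66.9 and 82.1 CPM, and DR A alone stood at 110 CPM with the other DR libraries between 70.6 and 76.7 CPM. For flp-22 the levels were 118, 118 and 139 CPM in AL and 124, 123, 167 and 122 CPM in DR libraries, with DR C alone above AL C (log2 fold change 0.10 ± 0.13, SE, adjusted p = 0.795, edgeR, and −0.02 without DR C). A single read of flp-23 was found, in DR D. Zero counts in the other libraries allow up to 0.131 to 0.179 CPM each, counting error only.

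Members differed widely in abundance. Per kilobase of exon the highest mean levels over all libraries were those of flp-14 (556 CPM per kb), flp-9 (535), flp-24 (509), flp-1 (319) and flp-15 (300.2), followed by flp-11 (284), flp-22 (263) and flp-5 (259). The lowest among tested members were those of flp-34 (23.4), flp-10 (41.0) and flp-32 (53.4). The first 3 overlapped in their ranges over libraries, and so did the next 5. The transcripts are short, with 422 to 1013 bases of exon per gene.

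**Figure D2:**
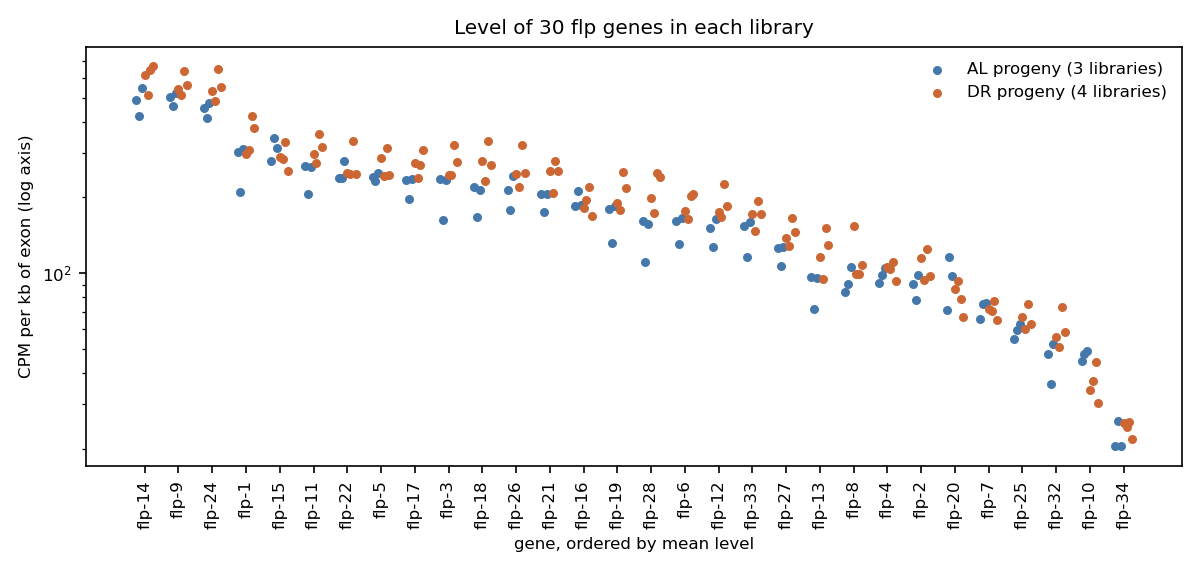
Level per kilobase of exon (CPM per kb, log axis) of each of the 30 tested flp genes, ordered by mean level, with 1 point per library in AL (blue) and DR (orange) progeny. The family spans from about 23.4 (flp-34) to 556 (flp-14), and in many genes the lowest blue point is AL B and the highest orange point DR C.

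The members varied together across libraries, within the groups as well as between them. Of the 3 AL libraries AL B was the lowest for 20 of 30 members, where it was for 35.8% of all genes tested. Of the 4 DR libraries DR C was the highest for 25 of 30 members, where it was for 27.7% of all genes. Both held for 17 members (12.7% of all genes), flp-28, flp-18 and flp-1 among them. The ratio of the highest to the lowest library was 2.27 for flp-28, 2.10 for flp-13 and 2.04 for flp-32, and 1.19 for flp-7. A few members broke the pattern: AL B was the highest of all libraries for flp-15, flp-20 and flp-34.

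**Figure D3:**
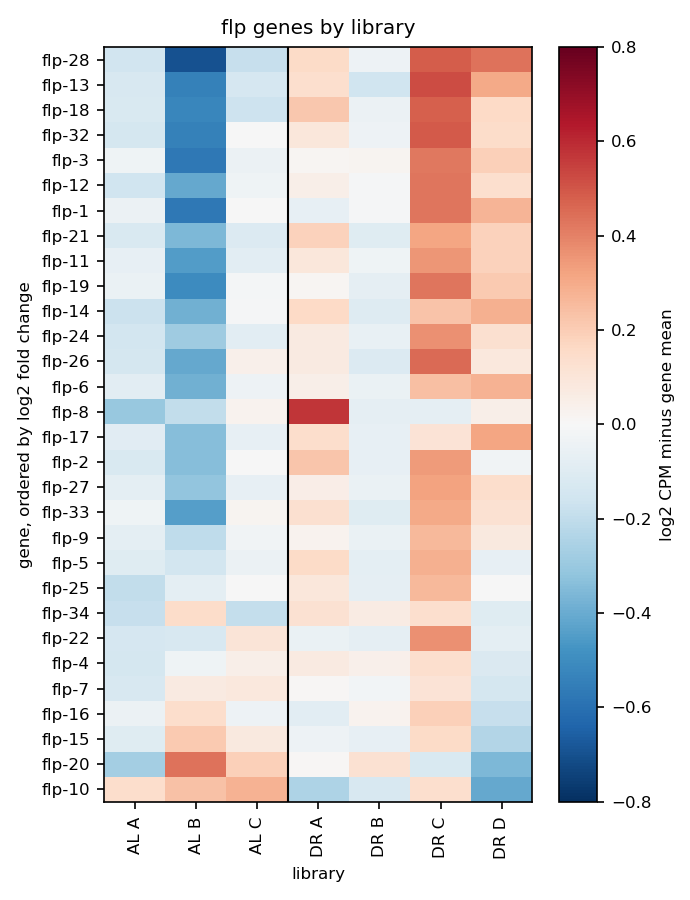
Log2 CPM minus the gene's mean over the 7 libraries for the 30 tested flp genes, ordered by fold change, with AL libraries left and DR libraries right of the line. Most members are low (blue) in AL B and high (red) in DR C, while flp-15, flp-20 and flp-10 at the bottom are not low in AL B.

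AL B and DR C were also the lowest and highest libraries for other peptide genes, whereas for general neuronal genes DR C was the lowest. Taking each member's log2 CPM relative to its own mean and then the median over members, the flp genes were at −0.12, −0.34 and −0.02 in AL A, B and C and 0.07, −0.06, 0.31 and 0.13 in DR A, B, C and D. The nlp genes, which encode other neuropeptides, were at −0.25 in AL B and 0.20 in DR C, and the insulin-like peptide genes at −0.33 and 0.26. Pan-neuronal genes were at −0.15 in DR C, the opposite direction, and between −0.00087 and 0.09 in the other 6 libraries, with AL B at 0.04. Summed pan-neuronal levels were 2182 to 2259 CPM in AL and 1937 to 2287 CPM in DR libraries, with the lowest value in DR C.

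**Figure D4:**
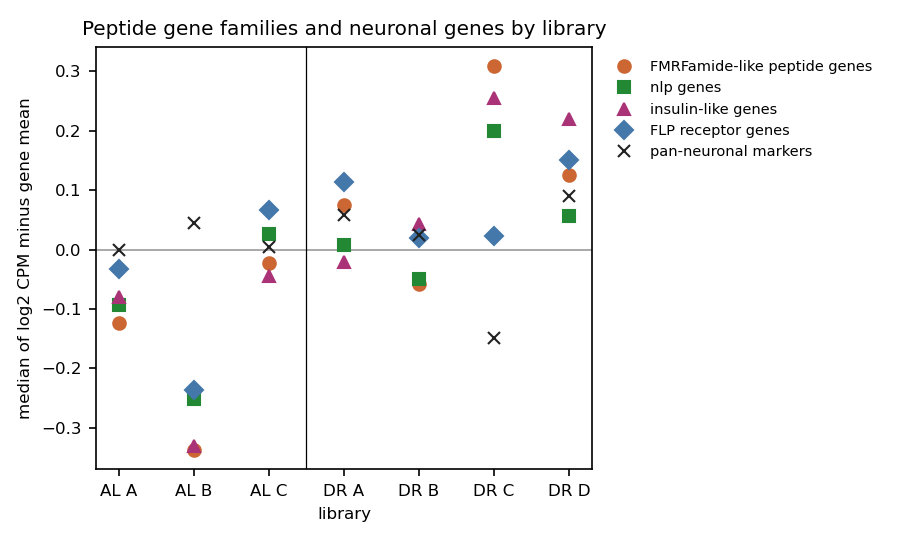
Median over tested members of log2 CPM minus the gene's own mean, in each library, for flp genes, nlp genes, insulin-like genes, FLP receptor genes and pan-neuronal genes. The peptide families are lowest in AL B and highest in DR C, where pan-neuronal genes are at −0.15.

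Over the comparison of the groups, 48 of 68 nlp genes tested were higher in DR progeny (median log2 fold change 0.16), with 9 higher and 0 lower at an unadjusted p under 0.05. Of 21 tested insulin-like genes 17 were higher (median 0.26), with 6 and 0. Of 25 pan-neuronal genes 11 were higher (median −0.03), with 0 and 4. Among all genes tested 51.6% were higher, with 5.39% higher and 5.35% lower at that unadjusted p. None of the nlp, insulin-like or pan-neuronal genes passed edgeR's test after adjustment over all genes.

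Markers of other tissues also differed between libraries, and their part in the peptide gene levels was not tested. Summed intestine markers (11 of 11 genes tested) were 7385 to 8732 CPM in AL and 5179 to 7609 CPM in DR libraries. Body wall muscle markers (10 of 10) summed to 11152 to 11626 and 8623 to 11254 CPM. These sums leaned on their most abundant genes, asp-1 (AL mean 4653, DR mean 3241) for intestine and unc-54 (AL mean 6308, DR mean 5172) for muscle. By fitted level, 4 muscle markers were higher and 6 lower in DR progeny, and 3 intestine markers were higher and 8 lower. Summed hypodermis markers (10 of 11) were 131 to 207 and 148 to 219 CPM, highest in DR B and AL B. Over the tested ones, the median log2 CPM relative to each gene's mean was 1.31 in AL B and 1.04 in DR B. In the other libraries that median lay between −1.14 and 0.17. Pharynx markers (7 of 8) were 2409 to 3141 and 2727 to 3258 CPM, lowest in AL B. The untested markers were the pharyngeal gene phat-1, with 0 to 1.06 CPM and no read in AL A, and the cuticle collagen gene rol-6, with 0.0484 to 0.432 CPM.

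Receptor genes for FLP peptides mostly had higher fitted levels in DR progeny, without passing the test. All 25 listed receptor genes of the npr, dmsr and frpr families and egl-6 were tested. Of these, 22 were higher in DR progeny (median log2 fold change 0.17), against 51.6% of all genes tested. At an unadjusted p under 0.05, 3 were higher (5.39% of all genes) and 1, egl-6, was lower (5.35% of all genes), and none passed after adjustment. The gene npr-22, whose product binds FLP-7 peptides, had 16.2, 13.8 and 17.5 CPM in AL A, B and C and 21.1, 19.4, 19.1 and 31.3 CPM in DR A, B, C and D (log2 fold change 0.52 ± 0.17, SE, adjusted p = 0.376, edgeR). The groups did not overlap, and DR D stood far above the other DR libraries. The next smallest p were those of npr-6, with means of 11.9 and 15.9 CPM in AL and DR progeny, and of dmsr-8, with 19.6 and 24.0 CPM.

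Receptors of the ligands that differed most did not all follow. For npr-1, the receptor of FLP-18 and FLP-21, the means were 6.45 and 6.48 CPM in AL and DR progeny, and for npr-5, another FLP-18 receptor, 50.6 and 50.6 CPM. The gene of a further FLP-18 receptor, npr-4, had 18.2 and 20.6 CPM. The receptor genes dmsr-1 and frpr-4, both tied to FLP-13 in sleep, had 55.1 and 64.4 CPM and 2.54 and 2.76 CPM. These receptor genes and egl-6 were picked after their values were seen, for their known ligands.

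The genes of enzymes that mature such peptides were divided in direction. Of 11 processing genes tested, 5 were higher and 6 lower in DR progeny (median −0.04), with 0 and 2 at an unadjusted p under 0.05 and none past the adjusted test. Of all genes tested 51.6% were higher, with 5.39% higher and 5.35% lower at that unadjusted p. The peptide-amidating enzyme gene pamn-1 had 13.5, 15.2 and 11.2 CPM in AL A, B and C and 8.96, 7.99, 10.7 and 10.2 CPM in DR A, B, C and D. Every DR library lay below every AL library (log2 fold change −0.50 ± 0.14, SE, adjusted p = 0.374, edgeR). The proprotein convertase gene aex-5 had means of 19.4 and 14.5 CPM, also without overlap, while pgal-1, whose product completes the amidation, had 492 and 563 CPM. The main convertase and carboxypeptidase of neuropeptide precursors, egl-3 and egl-21, had 1343 and 1362 CPM and 1070 and 1131 CPM.

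Dense-core vesicle genes were lower in 9 of 11 tested cases, where 7196 of all 14867 genes tested were lower. Their median was −0.07, with none at an unadjusted p under 0.05. Those with the smallest p were vps-50, with means of 14.9 and 12.6 CPM in AL and DR progeny, unc-31, needed for vesicle release, with 53.5 and 44.9 CPM, and pkc-1 with 182 and 166 CPM. The neprilysin peptidase genes nep-2 and nep-1 had 45.2 and 38.7 CPM and 130 and 125 CPM.

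In the Ensembl annotation 13 of the 30 tested members are on chromosome X, and their median log2 fold change was 0.33, with 11 higher in DR progeny. The 17 on the autosomes had a median of 0.26, with 14 higher. All tested genes of chromosome X had a median of 0.00014 and those of the autosomes of 0.01.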

How the data were processed

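Bowtie 1.1.2, HTSeq and edgeR are the tools named, per the submitters' processing notes. The deposited files hold raw counts per feature, 1 library per file. Sources used here do not state the genome build or annotation. Per the labels, the libraries were non-directional with 12 PCR cycles. In the authors' deposited table, log2 fold changes of DR over AL, p-values and adjusted p-values are, per the notes sheet, those of the exact test in edgeR after keeping genes over 1 CPM in at least 3 libraries.

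HTSeq summary lines, 22.2% to 24.0% of a library, were left out. Names and exon lengths came from Ensembl release 115 and matched 44443 features, with 177 from the authors' table and 348 unmatched. Members share at most 21 exon bases with another gene (flp-8).

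The test was edgeR 4.0.16 in R 4.3.3 (TMM, filterByExpr, robust quasi-likelihood F-test, two-sided, Benjamini-Hochberg over 14867 genes, threshold 0.05), tested on simulated data. The common biological coefficient of variation was 0.162. DESeq2 1.42.0, limma 3.58.1 (voom), other normalisations, filters, covariates and left-out libraries were tried. Libraries were distinct, with log2 correlations of 0.978 to 0.985 within AL, 0.979 to 0.981 within DR and 0.967 to 0.989 between the groups. The highest correlation was thus between an AL and a DR library. Floors are 3 counts of a library's total.

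Members and lists were chosen with earlier results of these data known. Values per library are given for the 8 members with the highest level per length, the 8 with the smallest p and those without overlap of the groups. Of the receptor, processing and vesicle lists, those 3 with the smallest p are named.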

Additional observations from a re-analysis of the deposited data

Results flagged for a closer look

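Among the 4 DR libraries, 1 library stood apart from the other 3 for 2 of the 31 levels examined (30 genes and their sum), where chance gives about 1 in 20. For flp-8, DR A had 110.3 CPM and the other DR libraries 70.6 to 76.7 CPM. For flp-22, DR C had 166.6 CPM and the others 122.0 to 124.2 CPM. For flp-8 the log2 fold change went from 0.30 to 0.12 without DR A, and for flp-22 from 0.10 to −0.02 without DR C.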

How the results depend on the processing

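Under 24 alternative fits no member passed after adjustment over all genes except within the second file-name prefix, where 1 did, flp-10 (log2 fold change −0.66, adjusted p = 0.0485 by edgeR; the lone DR library there is assumed to vary like AL), and where 4.08% of all genes were called. The count of members at an unadjusted p under 0.05 (16, of which 15 higher) was 0 (0) within the first prefix, where 3.72% of all genes had such a p, 2 (1) leaving out DR C and DR D together (7.2% of all genes), 3 (2) without both AL B and DR C (8.06%), and 10 (10) with the ribosomal RNA share as covariate (5.21%). Leaving out each library in turn gave 3 to 19 (2 to 18 higher), lowest without AL B, where 5.85% of all genes had such a p. Members without overlap of the groups (10) numbered 25 and 26 within the prefixes, where 49.1% and 77.8% of all genes did not overlap, 6 with the length trend removed (11.7% of all genes), and 10 to 20 with 1 library left out (14.4% to 21.8% of all genes). The median log2 fold change (0.29) was 0.11 without both AL B and DR C, and 0.16 to 0.35 under the other fits, 0.21 of these with the length trend removed. Among the 17 members given by library, signs turned for flp-15 within the first prefix (0.12) and for flp-22 within the second (−0.068), without both DR C and DR D (−0.017), without both AL B and DR C (−0.067) and without DR C (−0.020, the lowest of −0.020 to 0.18 with 1 library left out). Of the other 13, flp-7, flp-16 and flp-20 turned within the first prefix (0.16, 0.098 and 0.28) and flp-4 and flp-34 within the second (−0.12 and −0.075). Both flp-7 and flp-16 also turned with the replicate block, with the ribosomal covariate and without AL B or DR D, flp-7 without AL C and flp-16 without DR A, all between 0.000895 and 0.044. The cause of these changes was not tested. With the letters as a replicate block 20 members had an unadjusted p under 0.05 (9.13% of all genes) and none passed after adjustment (0.0269% of all genes). Same-letter libraries deviated together for A and B (correlations 0.198 and 0.268) but not for C (−0.102), and AL A matched DR C best, so the letters were not taken as pairs.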
